A study of Mus musculus with 4 samples.

Results

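Accessible chromatin was examined at 6 genes of the nuclear end of canonical WNT signalling, Tcf7l1, Tcf7l2, Tcf7, Lef1, Ctnnb1 and Axin2, out of 21883 protein-coding genes. The genes were taken as a named set, and each was given a window of its annotated body plus 50 kb on each side. All peaks of 2 deposited lists that overlapped a window were counted, which gave 196 of 484992 peaks in the Irx5KO list and 169 of 498061 in the WT list. The genes were chosen by pathway, with the numbers of genotype-only peaks in these same windows already known, so the counts are given as a description, with no test.

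The cells were hair follicle stem cells (HFSC), the resting stem cells of the follicle bulge that start each hair cycle, sorted from mice as Ly-6A/E negative, CD34 positive and positive for a marker given in the labels as CD45f. Nuclei of Irx5KO and WT cells, with 2 samples each, were profiled by ATAC-seq, which uses the Tn5 enzyme to insert adapters where DNA is open. Irx5 is a gene of the Iroquois homeobox family of transcription factors. The labels name neither the knockout allele nor the strain, age, sex or number of animals, and no further treatment is given for either group. Each list pools the 2 samples of its genotype, so no spread between samples could be computed, and genotype and library preparation cannot be told apart. The labels state 80000000 reads per sample, and the read depth behind a peak is not in the lists. Intervals below are 95% Wilson intervals, which cover counting error only.

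In canonical WNT signalling, beta-catenin (Ctnnb1) is held low by a cytoplasmic destruction complex until a WNT ligand stops that complex, after which beta-catenin enters the nucleus and joins DNA-binding factors of the TCF/LEF family. The family members recognise nearly the same short DNA motif. TCF7L1 is known chiefly as a repressor that is present in resting HFSC, whereas LEF1 is known as an activator in the hair germ and in the precursors of the hair shaft when a new growth phase (anagen) begins. TCF7L2 can repress or activate and is also known in HFSC, TCF7 is best known from T cells, and Axin2 is a widely used target gene whose product feeds back on the destruction complex.

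The promoters of Tcf7l1 and Lef1 are printed because these genes form the pair of repressor and activator, and because the peak over each start was called in both lists. The sequences are the 250 bases before the annotated start on the gene's own strand, from RefSeq on GRCm38.p6, and capitals mark the core CTTTG or its reverse complement CAAAG.
Tcf7l1, chr6:72789046-72789295, minus strand: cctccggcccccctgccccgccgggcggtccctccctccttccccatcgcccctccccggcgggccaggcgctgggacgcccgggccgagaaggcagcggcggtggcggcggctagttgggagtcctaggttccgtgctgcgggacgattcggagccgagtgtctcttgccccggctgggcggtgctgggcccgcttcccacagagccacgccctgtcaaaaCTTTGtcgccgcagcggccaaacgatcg
Lef1, chr3:131110047-131110296, plus strand: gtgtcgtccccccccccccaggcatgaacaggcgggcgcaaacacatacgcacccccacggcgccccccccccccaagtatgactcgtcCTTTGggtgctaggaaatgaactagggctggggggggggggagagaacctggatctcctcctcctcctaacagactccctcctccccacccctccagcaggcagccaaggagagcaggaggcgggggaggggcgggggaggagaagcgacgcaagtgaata
In the Tcf7l1 promoter all 250 bases lay under a peak in both lists, and in the Lef1 promoter 250 bases did in Irx5KO and 186 in WT. Each printed stretch held 1 copy of the core, which 48.6% of all 32851 promoters in the table held in the same 250 bases. The longer TCF/LEF words CTTTGAT and CTTTGAA, searched on both strands and overlapping the core in their first letters, were in none of the 12 promoters listed for the 6 genes (300 bases each, several starts for some genes). At least 1 of these words was present in 8.65% of all promoters (8.35 to 8.96). The Iroquois core ACANNTGT, which reads the same on both strands, was also in none of the 12, against 7.38% of all promoters. No match says only that these letters are not in these windows.

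Around most of the 6 genes the Irx5KO list held more peaks of its own than the WT list did. Of the 196 Irx5KO peaks, 115 shared at least 1 bp with the WT list and 81 did not. The WT list had 169 peaks there, 126 with such an overlap and 43 without. Peaks without overlap are called Irx5KO-only and WT-only here, and made up 21.8% of all Irx5KO peaks and 26.6% of all WT peaks. Among the genotype-only peaks of the 6 genes, 65.3% (56.6 to 73.1) were Irx5KO-only, against 49.3% over the windows of all coding genes, in which a peak counts once for each window it lies in. Irx5KO-only peaks outnumbered WT-only peaks at 5 of the 6 genes, and at 46.6% of all coding genes. The reverse held for Ctnnb1, and for 41.3% of all coding genes. The median excess of Irx5KO-only over WT-only peaks was 5 per gene for the 6 members and 0 for all coding genes. Without Tcf7l1 the other 5 genes had 54 peaks of the former and 35 of the latter kind, and the share was 60.7% (50.3 to 70.2).

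**Figure D1:**
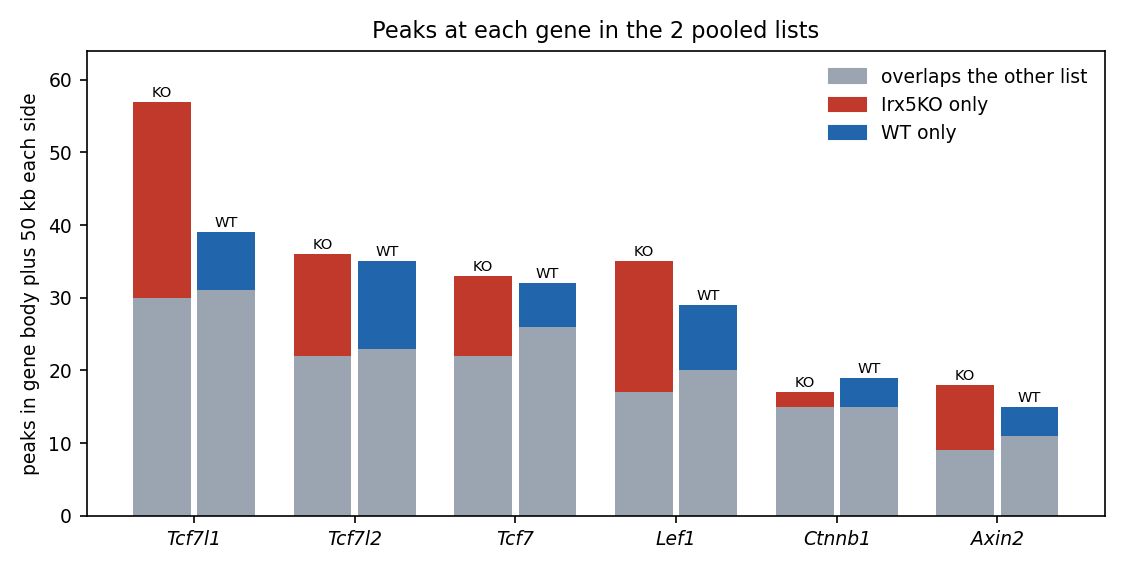
Number of peaks (vertical axis) overlapping the body plus 50 kb of each gene in the pooled Irx5KO list (left bar) and WT list (right bar), split into peaks that overlap the other list (grey) and peaks that do not (red, Irx5KO only; blue, WT only). The grey parts are of like height in both lists at each gene, while the red part reaches 27 peaks at Tcf7l1 and 18 at Lef1, against blue parts of 8 and 9.

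These genotype-only peaks were low in the score ranks of their own lists. The score is the authors' value per peak, and a rank is given here as the percentage of the list's peaks with the same or a lower score. Of the 81 Irx5KO-only peaks 80 lay in the lower 50% of the list, with a median percentile of 17.9, and of the 43 WT-only peaks 42 did, with a median of 14.7. Shared peaks at the 6 genes had median percentiles of 49.4 in Irx5KO and 43.2 in WT. The same order held over the whole lists, with medians of 15.8 for Irx5KO-only and 60.3 for shared peaks in Irx5KO, and of 18.2 and 62.7 in WT. Of all Irx5KO-only peaks 8.03% lay in the upper 50% of their list, and of all WT-only peaks 8.79%, so low ranks were common to genotype-only peaks anywhere. In the upper 50% by score, where 3.49% of Irx5KO and 4.66% of WT peaks were genotype-only, the 6 genes had 1 Irx5KO-only peak, at Tcf7l1, and 1 WT-only peak, at Axin2. The excess of Irx5KO-only peaks at these genes was thus an excess of low-ranked peaks. Genotype-only peaks were also narrow, with median widths of 260 bp in Irx5KO and 290 bp in WT. Shared peaks had medians of 450 bp and 400 bp. Over the whole lists the medians were 250 bp for genotype-only and 500 bp for shared peaks, in Irx5KO and in WT alike.

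**Figure D2:**
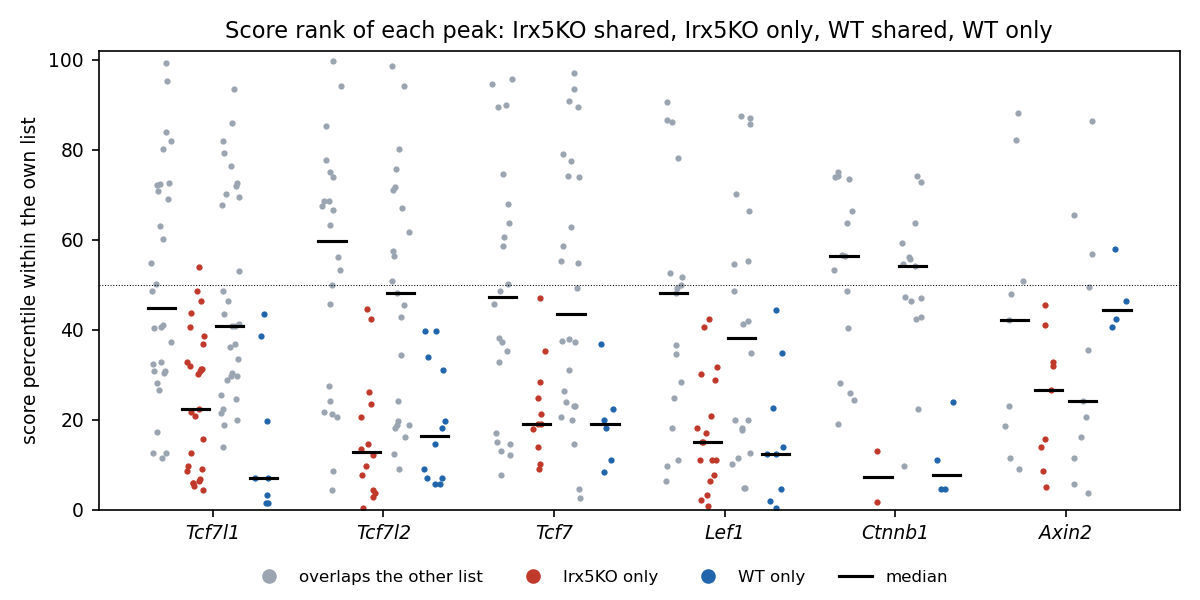
Score percentile of every peak within its own list (vertical axis) for each gene, in the order Irx5KO shared, Irx5KO only, WT shared and WT only, with black bars for the medians and a dotted line at 50. Red and blue points lie below the line except for 1 red point at Tcf7l1 (53.9) and 1 blue point at Axin2 (58.0).

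Shared peaks overlap the other list by definition, and in Irx5KO their summits lay about as close at these genes as over the whole list. At the 6 genes the summit of a shared Irx5KO peak lay a median of 40 bp from the nearest summit of the overlapping WT peaks, and 56.5% of them lay within 50 bp. Over all shared Irx5KO peaks the median was also 40 bp, and 55.7% lay within 50 bp. For shared WT peaks the median was 50 bp at the 6 genes and 40 bp over the whole list. Within 50 bp lay 51.6% of them at the 6 genes and 57.7% over the list. Close to the 1 bp rule, the smallest overlap at these genes was 10 bp, at a peak of Tcf7l2, and the smallest gaps of unshared peaks were 30 bp, at 1 WT-only peak each of Tcf7l1 and Tcf7. At the edge of the windows, an Irx5KO-only peak at percentile 20.8 crossed the border of the Lef1 window. The next Irx5KO peak outside that border lay 7.32 kb away and was shared. Another Irx5KO-only peak, at percentile 19.0, crossed the border of the Tcf7 window. There the next Irx5KO peak lay 0.217 kb outside the border and was shared.

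Tcf7l1 (chromosome 6, 72626371 to 72789045, minus strand) had the largest number of genotype-only peaks among the 6 genes. Its window of 262.7 kb held 57 Irx5KO peaks, 30 of them shared and 27 Irx5KO-only. The WT list held 39 peaks there, 31 of them shared and 8 WT-only. The Irx5KO-only share was 77.1% (61.0 to 87.9), and the excess of 19 peaks was reached or passed by 9 of the 21883 coding genes, Tcf7l1 included. Such counts grow with the length of a window. Per 100 kb there were 10.3 Irx5KO-only and 3.05 WT-only peaks, beside 11.4 and 11.8 shared peaks in Irx5KO and WT. In the 1 Mb beyond each side of the window the 2 kinds were of like number, 92 from Irx5KO and 94 from WT, and the share was 49.5% (42.4 to 56.6).

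The Irx5KO-only peaks of Tcf7l1 lay mostly inside the gene, which makes up 162.7 kb of the 262.7 kb window. The body held 18 of the 27, the 50 kb before the start 4 and the 50 kb after the gene 5. Of the 8 WT-only peaks, 6 lay in the body, 1 before and 1 after it. Exons and introns could not be told apart, since the gene table used gives spans only. The highest-ranked Irx5KO-only peak lay 73.3 kb downstream of the start, inside the gene (72715661 to 72715880, percentile 53.9). The WT list had a peak of its own 410 bp from it (72715021 to 72715250), at percentile 3.32. The highest-ranked WT-only peak lay 5.58 kb before the start (72794461 to 72794780, percentile 43.5), and an Irx5KO-only peak at percentile 43.7 lay 70 bp from it (72794851 to 72795250). These neighbouring calls count as separate genotype-only peaks under the overlap rule. In all, 6 of the 27 Irx5KO-only peaks and 4 of the 8 WT-only peaks lay within 500 bp of a peak of the other list, against 27.5% of all Irx5KO-only and 28.3% of all WT-only peaks. The remaining Irx5KO-only peaks were farther away, up to 10.2 kb for the peak 111.4 kb into the gene.

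The peak over the Tcf7l1 start was shared (72788821 to 72789710 in Irx5KO and 72788901 to 72789700 in WT), with summits 30 bp apart and percentiles of 54.9 and 48.7. No genotype-only peak of either list lay within 5 kb of this start. The highest-ranked Irx5KO peak of the window was a shared one, 38.0 kb into the gene (72750691 to 72751350, percentile 99.3), where the overlapping WT peak was at percentile 85.9. The highest-ranked WT peak was shared as well, 31.7 kb before the start (72820251 to 72821250), at percentile 93.5, with its Irx5KO counterpart at 95.3. Ranks from lists of different length are set side by side here and show no change in accessibility. The Irx5KO peaks covered 23.96 kb of the window and the WT peaks 15.97 kb, of which 12.41 kb was common. A ratio of Irx5KO to WT length as high as this was found at 5.72% of coding genes, whose median ratio was 1.03. When only the top 25% of peaks by score were counted, the ratio turned to 0.858. All or part of Elmod3, Retsat and Tgoln1 also lay in this window, from 9.37 kb beyond the Tcf7l1 gene onward, so some peaks on that side may belong to them.

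**Figure D3:**
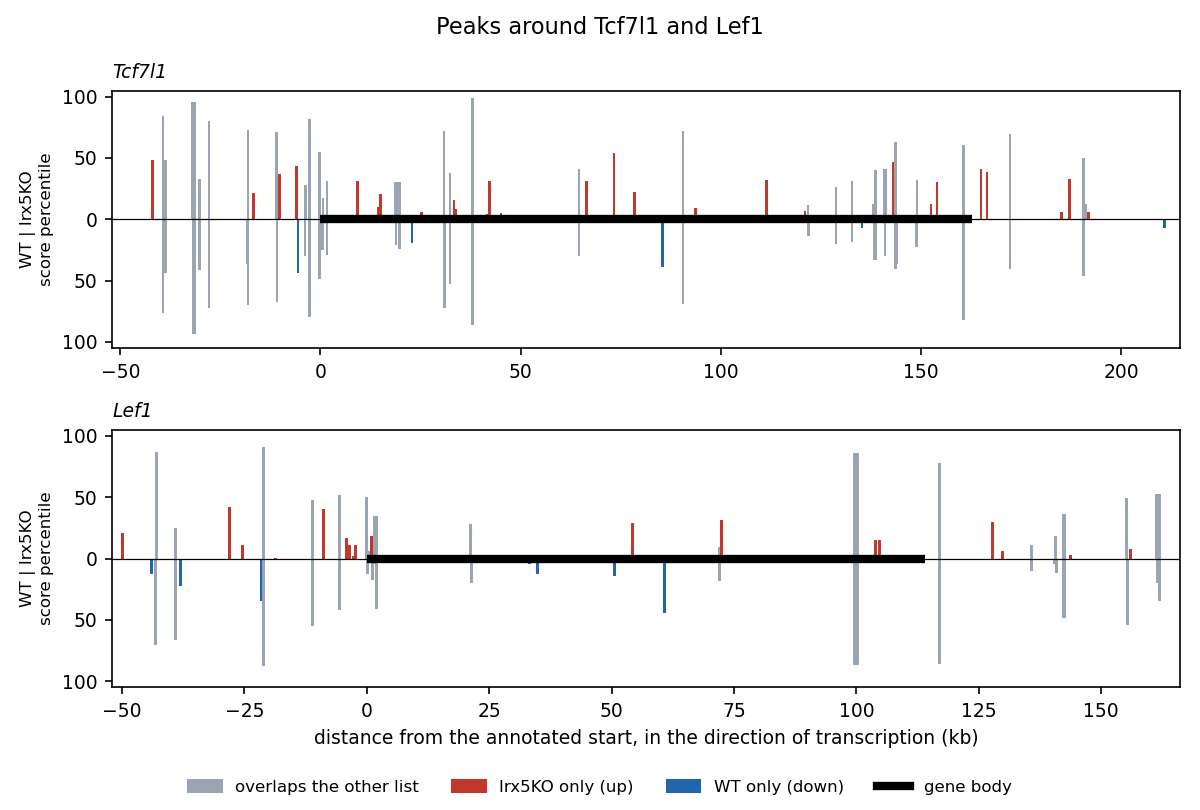
Peaks of Irx5KO (upward) and WT (downward) around Tcf7l1 and Lef1, by distance from the annotated start in the direction of transcription (kb); bar height is the score percentile within the own list, grey bars overlap the other list, and the black line is the gene body. Red bars are spread along the Tcf7l1 gene with none within 5 kb of its start, whereas at Lef1 a group of 4 stands just before the start.

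Lef1 (chromosome 3, 131110297 to 131224357, plus strand) had the next largest excess. Its window of 214.1 kb held 35 Irx5KO peaks, 17 of them shared and 18 Irx5KO-only. In WT it held 29 peaks, 20 of them shared and 9 WT-only. The Irx5KO-only share was 66.7% (47.8 to 81.4), and an excess of 9 peaks or more was found at 660 coding genes, or 3.02%. Per 100 kb there were 8.41 Irx5KO-only and 4.20 WT-only peaks. In the 1 Mb beyond each side 81 were Irx5KO-only and 92 WT-only, and the share was 46.8% (39.5 to 54.2). No genotype-only peak of Lef1 lay in the upper 50% of either list.

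At Lef1 9 of the 18 Irx5KO-only peaks lay before the start, 5 in the gene and 4 after it. Of these, 4 stood between 4.22 kb and 2.25 kb before the start, with midpoints at 4.22, 3.61, 2.77 and 2.25 kb and percentiles of 17.1, 11.1, 2.11 and 11.1. Another lay 0.884 kb behind the start (131111051 to 131111310, percentile 18.2), 80 bp from a WT peak. WT had no peak of its own within 5 kb of the start. Its WT-only peaks lay in 2 groups, 4 between 43.9 and 21.5 kb before the start and 5 between 33.1 and 60.9 kb into the gene. The highest-ranked was in the group inside the gene (131171041 to 131171320, percentile 44.4). The highest-ranked Irx5KO-only peak lay 28.1 kb before the start (131082031 to 131082410, percentile 42.4).

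A shared peak covered the Lef1 start in both lists (131109981 to 131110480 in Irx5KO and 131110111 to 131110660 in WT). It ranked at percentile 49.8 in Irx5KO and at 12.6 in WT, and the summits lay 210 bp apart. The WT peak also reached a neighbouring Irx5KO peak (131110531 to 131110970, percentile 6.28), whose summit was 60 bp from its own. Of the further starts of Lef1 in the promoter table, that at 131110323 lay under the same peaks. The start at 131112791 lay 201 bp from an Irx5KO and 221 bp from a WT peak. The start at 131156294 had no peak within 4 kb. A WT-only peak (131151871 to 131152140) lay 4154 bp from it, and the nearest Irx5KO peak 8067 bp. The highest-ranked peak of the window was the same shared one in both lists, 21.1 kb before the start (131088991 to 131089450 in Irx5KO and 131088951 to 131089360 in WT), at percentiles 90.7 and 87.4. Irx5KO peaks covered 14.4 kb of the window and WT peaks 11.29 kb, with 7.46 kb in common. The ratio was 1.28, reached or passed by 16.5% of coding genes. The gene Hadh lies 9.06 kb beyond Lef1, and peaks on that side may belong to it.

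Set side by side, the repressor gene Tcf7l1 and the activator gene Lef1 had Irx5KO-only shares of 77.1% and 66.7%. With 1 list per genotype the difference between the 2 genes has no test. The gene body held 18 of 27 Irx5KO-only peaks at Tcf7l1 and 5 of 18 at Lef1. Shared Irx5KO peaks were divided in a similar way, with 18 of 30 in the body at Tcf7l1 and 6 of 17 at Lef1. The gene body makes up 162.7 kb of the Tcf7l1 window and 114.1 kb of the Lef1 window.

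Near the first annotated starts of the 6 genes the genotype-only peaks were all from the Irx5KO list. This distance was chosen after the values were seen. Within 5 kb of the first annotated start there were 12 Irx5KO-only and 0 WT-only peaks over the 6 genes. Lef1 had 5 of them, Axin2 3, Tcf7 2, Tcf7l2 1, Ctnnb1 1 and Tcf7l1 none. Further starts were not counted. That of Lef1 at 131156294 had a WT-only peak 4154 bp away and no Irx5KO peak within 5 kb. The gene span of Axin2 begins before its annotated start, and counted from the edge of the span Axin2 had 1 and the 6 genes 10, with 0 WT-only. Irx5KO-only peaks were in excess at 5 of the 6 genes, and at 28.8% of the 17491 coding genes with an annotated start, while WT-only peaks were in excess at 22.8% of them. Over all those genes 10262 Irx5KO-only and 8871 WT-only peaks lay this close, a share of 53.6% (52.9 to 54.3). As many as 5 Irx5KO-only peaks were found at 35 genes, Lef1 included. Irx5KO peaks covered 15.2 kb of these stretches over the 6 genes and WT peaks 8.23 kb. Over all 17491 genes the lengths were 33246 kb and 31003 kb. All 12 peaks lay in the lower 50% of their list by score, so none was left in the upper 50%, where 8.03% of all Irx5KO-only peaks lay. Within 2 kb of the starts 2 and 0 were counted, and within 10 kb 20 and 1.

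Among the other TCF genes, Tcf7l2 (chromosome 19, 55741797 to 55933659, plus strand) differed little between the lists. Its window held 36 Irx5KO peaks with 14 Irx5KO-only and 35 WT peaks with 12 WT-only, a share of 53.8% (35.5 to 71.2). With flanks of 10 kb the counts were equal, 10 and 10. In the gene body WT-only peaks were more frequent, 10 against 8, and before the start Irx5KO-only peaks were, 5 against 2. The highest-ranked peak of all 6 windows was a shared one 28.9 kb into Tcf7l2 (55770361 to 55771090), at percentile 99.7 in Irx5KO and 98.6 in WT. The peak over the first start ranked at 77.6 in Irx5KO and 50.9 in WT, with summits 10 bp apart. A later start at 55895321 had no peak within 8 kb in either list. A stretch of 7.07 kb at the far end of the window formed a single wide peak in both lists, which ranked at 94.3 and 94.1. The lists covered 21.0 kb and 18.8 kb of the window.

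Tcf7 (chromosome 11, 52246527 to 52283383, minus strand) had 33 Irx5KO peaks with 11 Irx5KO-only, and 32 WT peaks with 6 WT-only, a share of 64.7% (41.3 to 82.7). With flanks of 100 kb the counts were 16 and 14. In the 1 Mb beyond each side 75 were Irx5KO-only and 79 WT-only, a share of 48.7% (40.9 to 56.5). Before the start there were 6 Irx5KO-only peaks and no WT-only peak, the highest-ranked at 5.64 kb (52288511 to 52288800, percentile 47.1). Beyond the far end of the gene there were 4 Irx5KO-only peaks and all 6 WT-only peaks. The WT-only peaks lay 66.6 to 85.9 kb from the start, in the stretch that also holds Olfr1371, and 5 of them were within 500 bp of an Irx5KO peak. Shared peaks were frequent on this side, 16 in Irx5KO and 20 in WT, and Skp1 overlaps the end of Tcf7 there. In the gene body itself each list had 2 shared peaks, and Irx5KO 1 of its own. The shared peak next to the outer start (52283031 to 52283560 in Irx5KO, 52283151 to 52283530 in WT) ranked at 60.6 in Irx5KO and 26.4 in WT. The highest-ranked peaks were shared and lay before the gene, 18.5 kb from the start in Irx5KO (percentile 95.7) and 34.5 kb from it in WT (percentile 97.1).

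Ctnnb1 (chromosome 9, 120933400 to 120960507, plus strand), which encodes beta-catenin, had few genotype-only peaks and was the one gene of the 6 with more WT-only peaks. Its window held 17 Irx5KO peaks with 2 Irx5KO-only, and 19 WT peaks with 4 WT-only. Each list had 15 shared peaks, with a median distance of 25 bp between summits. The peak over the start was shared and ranked at 53.3 in Irx5KO and 46.4 in WT. The 2 Irx5KO-only peaks ranked at 13.0 and 1.72 and the 4 WT-only peaks at or under 24.0. The share of 33.3% had an interval from 9.68 to 70.0, and with flanks of 100 kb the difference turned to 2 more Irx5KO-only peaks. In the 1 Mb beyond each side 98 were Irx5KO-only and 61 WT-only, and the share was 61.6% (53.9 to 68.8). The gene Ulk4 lies 3.95 kb beyond the Ctnnb1 span and covers the far side of the window from there on. Covered length was 8.42 kb in Irx5KO and 8.66 kb in WT.

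Axin2 (chromosome 11, 108917828 to 108950783, plus strand) had 18 Irx5KO peaks with 9 Irx5KO-only and 15 WT peaks with 4 WT-only, a share of 69.2% (42.4 to 87.3). The gene body held 6 of the 9 Irx5KO-only peaks and 1 of the 4 WT-only peaks. Over the annotated start at 108920349 the Irx5KO list had a peak of 2390 bp (108919781 to 108922170, percentile 47.8), and the WT list had 3 separate peaks in the same stretch, of 310, 540 and 220 bp. The WT peak over the start itself (108920231 to 108920540) ranked at percentile 35.6 and the other two at 24.1 and 16.1. Irx5KO-only peaks lay 4.47 kb before this start (108915771 to 108915990, percentile 45.4) and 3.05 and 3.52 kb behind it, at percentiles 13.9 and 8.54. The 4 WT-only peaks ranked between 40.7 and 58.0, with a median of 44.3, and the medians at the other genes lay between 7.11 and 19.1. The top one lay 37.1 kb before the start (108883181 to 108883390), and in the upper 50% of both lists it was the only genotype-only peak of Axin2. The highest-ranked peak was shared, 32.6 kb before the start (108887491 to 108887990 in Irx5KO), with the 2 summits at the same base and percentiles of 88.1 and 86.3. Covered length was 7.77 kb in Irx5KO and 5.05 kb in WT, a ratio of 1.54 that was reached or passed by 4.80% of coding genes. The 1 Mb beyond each side likewise held more Irx5KO-only peaks, 58 against 35.

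**Figure D4:**
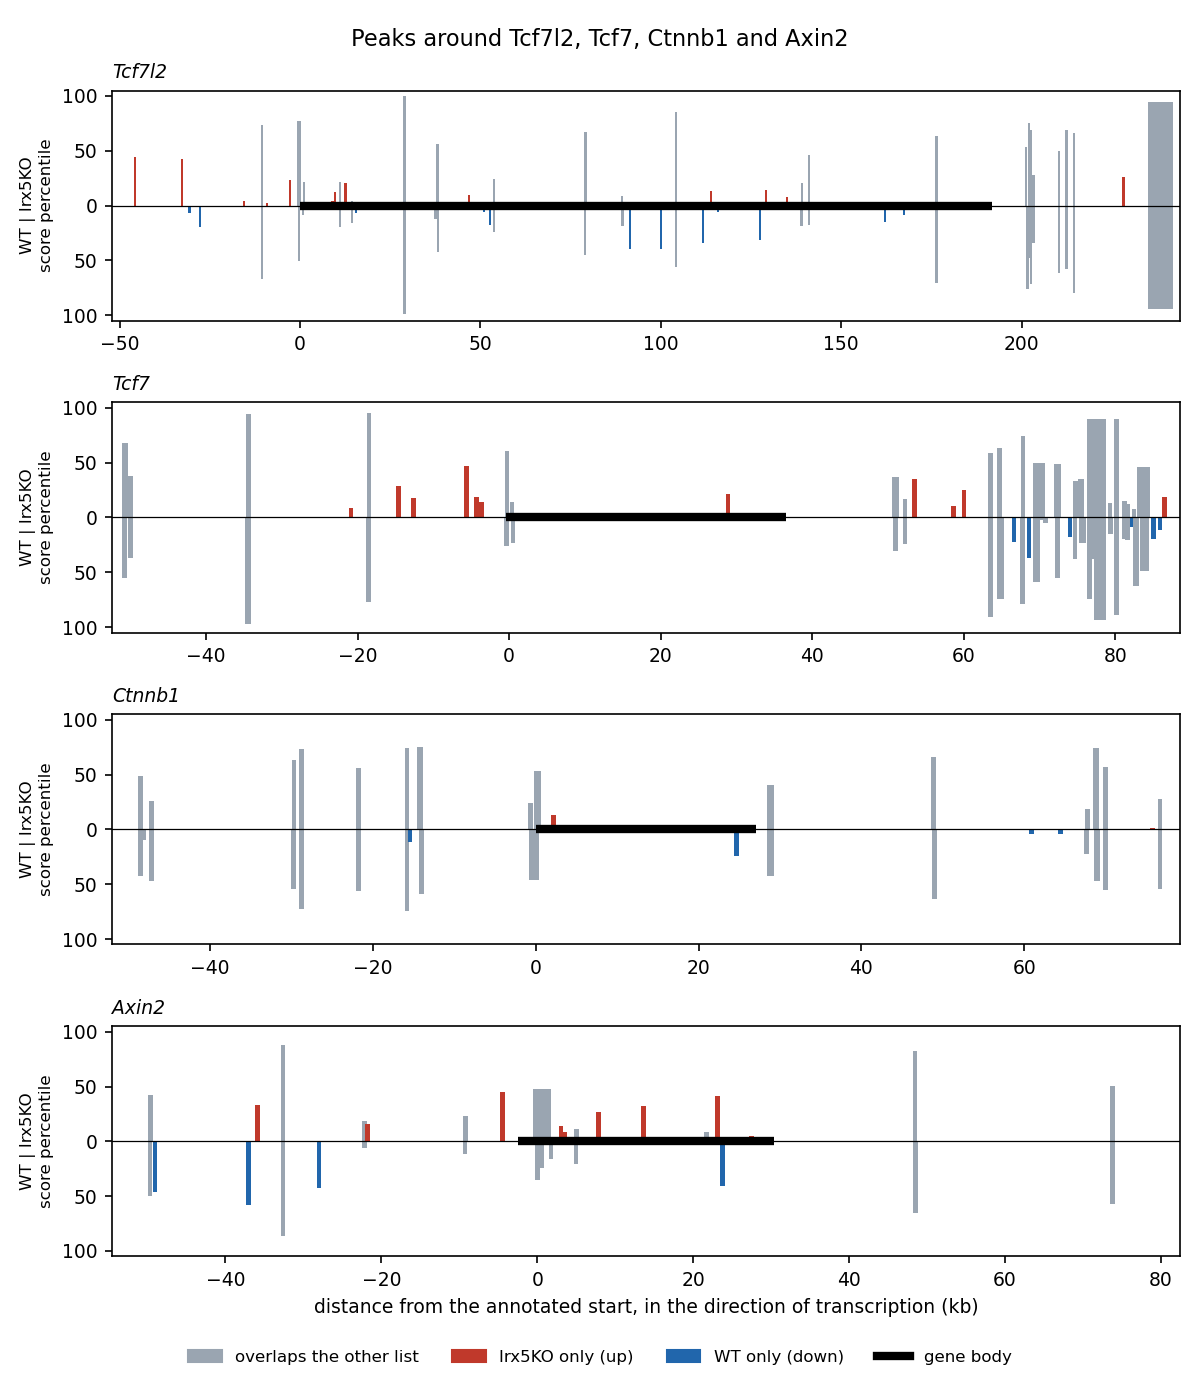
Peaks of Irx5KO (upward) and WT (downward) around Tcf7l2, Tcf7, Ctnnb1 and Axin2, by distance from the first annotated start in the direction of transcription (kb), with the score percentile as bar height, peaks that overlap the other list in grey and the gene body in black. Within 5 kb of the starts coloured bars point upward only, and at Tcf7 the 6 blue bars all stand in the stretch beyond the gene.

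**Figure D5:**
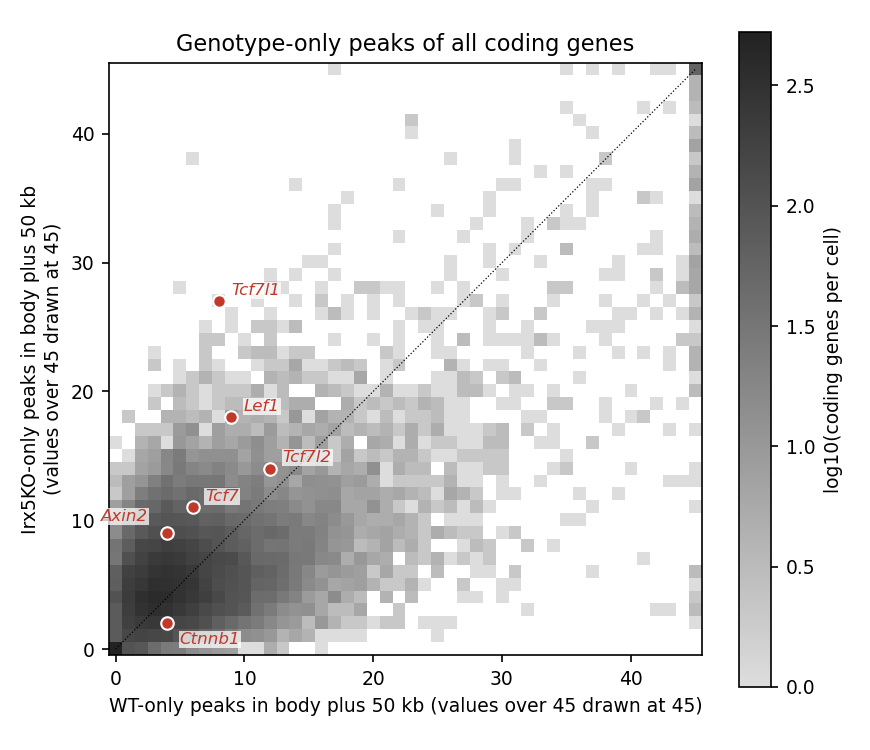
Number of WT-only (horizontal) and Irx5KO-only peaks (vertical) in the body plus 50 kb of each of 21883 coding genes, shaded by the log10 number of genes per cell, with the 6 genes in red and equality dotted. Tcf7l1 lies at 8 and 27, away from most genes, Lef1 at 9 and 18, and Ctnnb1 below the dotted line at 4 and 2.

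Other genes of the pathway were counted in the same windows, over all scores first. Of 16 genes of the destruction complex and the cytoplasmic relay, 12 had more Irx5KO-only and 3 more WT-only peaks, with 113 and 70 peaks in all and a median excess of 3. Gsk3a, which encodes a kinase that marks beta-catenin for breakdown, had 14 and 2, and Amer1, which encodes a membrane partner of APC, had 2 and 6. Of 24 nuclear cofactors, 16 had more Irx5KO-only and 3 more WT-only peaks, with 187 and 101 peaks and a median excess of 2.5. Among these Ctbp2, which encodes a corepressor, had 18 and 1, and Smarca4, which encodes a chromatin remodelling ATPase, had 4 and 8. The windows of the cofactors Tle2 and Tle5 overlap, so a peak in both windows counts for each gene. Of 15 target genes, 11 had more Irx5KO-only and 4 more WT-only peaks, with 103 and 75 peaks and a median excess of 3. Notum, which encodes a secreted WNT deacylase, had 9 and 0, with a peak within 1 kb of a gene end in Irx5KO only. Dkk1, which encodes a secreted WNT antagonist, had 1 and 15, the largest WT-only excess of the 3 lists. The share of coding genes with more Irx5KO-only peaks was 46.6%. In the upper 50% by score, where that share was 21.8%, the counts were 6 of 16, 4 of 24 and 4 of 15 genes. The nuclear cofactors turned there to 11 Irx5KO-only against 14 WT-only peaks. The destruction complex had 10 and 4 and the targets 12 and 8. Over the windows of all coding genes, 45.2% of the genotype-only peaks in the upper 50% were Irx5KO-only. In the upper 25%, where 3.93% of coding genes had more Irx5KO-only peaks, the counts were 1, 0 and 1.

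Markers of the sorted cells and of cells that a sort could carry over were looked at next. A marker was taken as open where a peak lay within 1 kb of either gene end, as for 81.3% of coding genes in Irx5KO and 79.2% in WT. All 10 HFSC markers, among them Cd34, Krt15, Sox9, Nfatc1 and Lhx2, were open in both lists. Their windows had 75 peaks found in Irx5KO alone and 44 in WT alone, a share of 63.0% (54.1 to 71.2). Irx5KO-only peaks were in excess at 8 of the 10, against 46.6% of coding genes. WT-only peaks were in excess at Cd34, with 2 Irx5KO-only and 4 WT-only, and at Tbx1, with 6 and 12. Of 6 markers of hair matrix and shaft, where Lef1 is known to act, 5 were open in both lists and Krt35 in neither, with 46 and 14 genotype-only peaks, a share of 76.7% (64.6 to 85.6). Of 6 T cell genes, relevant to Tcf7 and Lef1, 2 were open in Irx5KO and 1 in WT, and Cd3e, Cd3d, Cd3g and Cd2 were open in neither, yet their windows held 30 and 8 genotype-only peaks, a share of 78.9% (63.7 to 88.9). The 3 Cd3 genes are neighbours and share peaks, and Cd3e, Cd4 and Cd8a are also in the immune list. Lgr5 is both in the HFSC list and among the target genes. Within the HFSC list the windows of Krt15 and Krt14 overlap. The Krt15 window also overlaps that of Krt35 in the hair matrix and shaft list, so peaks there can count more than once. For 6 immune markers the counts were 3 open in Irx5KO and 4 in WT, with 38 and 32 peaks, and for 6 melanocyte markers 4 and 6, with 49 and 26. For 6 markers of fibroblasts and dermal papilla they were 5 and 4, with 42 and 48 peaks, and for 5 endothelial markers 3 in each list, with 46 and 39. An excess of Irx5KO-only peaks like that at Tcf7l1 and Lef1 was thus also counted at markers of other cell types, and the part of other cells in the counts was not tested.

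The genes with the profile most like those of the pair were sought over both lists, by the Euclidean distance of 4 values per 100 kb of window (shared Irx5KO, shared WT, Irx5KO-only and WT-only peaks). Nearest to Tcf7l1 were Irx5 itself, with 11 Irx5KO-only and 3 WT-only peaks, Stra8, with 12 and 4, and Reep4, with 10 and 3, at distances from 0.457 to 0.711. Nearest to Lef1 were Mcam at 0.646, Plin5 at 0.708 and Kptn at 0.709, each with 9 Irx5KO-only and 4 WT-only peaks. Their windows, of 103.7 to 119.2 kb, were shorter than those of the pair.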

How the data were processed

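ATAC-seq peaks of HFSC from Irx5KO and WT mice were analysed, with 2 samples per genotype. The submitters' processing notes name Genrich 0.6, Bowtie2, cutadapt 2.9 and FastQC, with ChIPseeker 1.24.0 and deepTools 3.4.2, and the build mm10. The sources used here give no roles, settings, duplicate handling or Tn5 shift. Per the labels, 1 list was deposited per genotype for both samples. Per the file headers the format is narrowPeak, and the deposited score per peak, the authors' own, is the only filled value besides position and summit, since the signal, p and q columns hold no values above 0. Scores were ranked within a list only.

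Peaks on the 21 standard chromosomes were kept. Gene spans, starts, strands and promoters came from RefSeq tables of GRCm38.p6, the assembly of mm10; all 6 members and all list genes were matched. Sharing meant at least 1 bp of overlap and gave the same number of shared peaks with bedtools 2.31.1. The counting was also tested on simulated peaks. No test between genotypes was possible. The members, gene lists and alternatives were chosen with earlier results of these data known. Named pathway genes were those with the largest excess in each direction per list. The genes most alike and the peaks printed (nearest the start, highest score, highest genotype-only score) also followed fixed rules; peaks within 5 kb of a start and other single peaks were chosen after their values were seen, and the core CTTTG after the promoters were read. Python 3.11.15 with numpy 2.4.6, pandas 2.3.3, scipy 1.17.1 and matplotlib 3.10.9 was used. Alternatives changed score threshold, overlap rule, flank, assignment, peak width and list length.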

Additional observations from a re-analysis of the deposited data

How the results depend on the processing

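No paired analysis was possible because each list pools both samples of its genotype, and leaving out a sample could not be run for the same reason. The Irx5KO-only share stayed within its counting interval with 50% coverage as the sharing rule, flanks of 10 or 100 kb, peaks up to 2 kb wide and lists of equal length, for the 6 genes, Tcf7l1, Lef1 and the other 4 genes. In the upper 50% by score it was 50% over the 6 genes (1 and 1 peaks), 100% at Tcf7l1 (1 and 0) and 0% at the other 4 genes (0 and 1), where Axin2 turned to -1, and Lef1 had no genotype-only peak. In the upper 25% no genotype-only peak was left at any of the 6 genes. With peaks assigned to the nearest gene end the share was 73.7% over the 6 genes and 73.5% at the other 4, against 48.0% over all coding genes. With lists of equal length it was 67.5% over the 6 genes and 51.8% over all coding genes. Flanks of 100 kb turned the excess at Ctnnb1 to 2, lowered that at Tcf7 from 5 to 2 and raised that at Tcf7l2 from 2 to 6, and flanks of 10 kb took Tcf7l2 and Ctnnb1 to 0 and Lef1 from 9 to 5. In the upper 25%, added after the data were seen, the covered ratio at Tcf7l1 was 0.858. Genes with more Irx5KO-only peaks in the destruction complex, cofactor and target lists numbered 12, 16 and 11 in all. In the upper 50% they numbered 6, 4 and 4 (21.8% of all coding genes), and in the upper 25% 1, 0 and 1 (3.93%). The cofactors turned to 11 Irx5KO-only against 14 WT-only peaks in the upper 50%, where the share over all coding genes was 45.2%. Promoters with CTTTGAT or CTTTGAA made up 7.48% in the 250 bases before the start, a shorter window. Near the first annotated starts the excess of 12 peaks became 15 with 50% coverage, 2 within 2 kb, 19 within 10 kb and 0 in the upper 50%. The cause of the other changes was not tested. The depth behind each peak is not given, so a peak missing from a list may have been below its threshold there.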
